A study of Homo sapiens with 6 samples.

Results

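Heat shock chaperones keep other proteins folded, and HSF1 is the transcription factor that switches many of their genes on. The 10 genes described here were named as a set: HSPA1A, HSPA1B, HSPA8, HSPH1, HSPB1, HSPD1, HSPE1, HSP90AA1, DNAJB1 and HSF1. They were matched by symbol, through a table of Ensembl identifiers, to the deposited gene table of 62700 genes, and all 10 were found. RNA came from TCam-2, an established human testicular cancer cell line. Non-transduced cells (WT) and cells transduced with GFP_FLAG (GFP) are the negative controls. The third group was transduced with RBMXL3_FLAG (RBMXL3). The study asked which genes differ in expression or splicing when RBMXL3 is overexpressed. Each group had 2 libraries of polyadenylated RNA, made with a stranded kit. The vector, its promoter, and whether the transduced cells were a pool or a clone are not given in the sources used here. The labels do not say that the 2 libraries of a group came from separate cultures, so p-values measure only the spread between these libraries, which may be technical.

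As background, HSF1 binds heat shock elements, which are inverted repeats of the bases GAA, after proteotoxic stress. The HSP70 proteins bind exposed stretches of client proteins and release them in a cycle driven by ATP. J-domain proteins such as DNAJB1 start that cycle, HSP110 proteins such as HSPH1 reset it by exchanging the nucleotide, and HSP90 takes over part of the clients. HSPD1 and HSPE1 form the folding chamber of mitochondria, and HSPB1 is a small heat shock protein that holds unfolded chains without using ATP. HSPA8 and, although stress-inducible, HSP90AA1 are made in unstressed cells, whereas HSPA1A and HSPA1B are best known as the stress-inducible HSP70 genes. Testicular germ cells also make HSP70 proteins of their own, such as HSPA2.

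Between 17685680 and 29318007 reads were assigned to genes per library. RBMXL3 had 84 and 68 reads in the 2 RBMXL3 libraries and 0 reads in each of the 4 control libraries, where a count of 0 allows up to 3 reads. All 10 seminoma and primordial germ cell markers passed the filter on low values, with summed normalised counts of 117839 to 135222 in WT cells, 117781 to 129496 in GFP cells and 121191 to 121818 with RBMXL3. Within that list limma called NANOS3 higher and KIT and LIN28A lower in RBMXL3 against both controls. Of all genes, 6.88% were called higher and 6.86% lower in both. KIT was at 1411 and 1429 against 1802 to 2578 in the controls. POU5F1 was called higher and PRDM1 lower against WT only. Of 4 embryonal carcinoma markers, 1 was called higher against GFP and 2 against WT, none in both. Of all genes, 10.5% and 14.6% were called higher. Of 8 testicular somatic markers, 4 passed the filter. Those were GATA4 (830 to 994 normalised counts), AMH (93.3 to 187), SOX9 and ACTA2 (13.4 to 45.3), while MYH11 was at 3.36 to 9.62, CYP17A1 was listed at 0 throughout, and INSL3 and STAR did not exceed 1.07. SOX9 was called higher against both controls, as were 6.88% of all genes, at 118 and 116 in RBMXL3 against 67.1 to 78.4. The part of these markers in the results was not tested. GFP replicate 1 stood apart: 1.31% of its reads were mitochondrial, against 2.02% to 3.02% in the other 5 libraries, and the 2 GFP libraries differed most from each other (median absolute log2 difference over genes 0.183, against 0.124 for WT and 0.077 for RBMXL3). Its part in the results was not tested, and values without it are given where they change a call.

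The main change among the heat shock genes was a fall of HSPA8, the constitutive cytosolic HSP70, at -49.9% against GFP and -47.4% against WT. In the gene counts it came together with a rise of the inducible HSPA1B. In TPM summed per gene, HSPA1B passed the test against WT only. HSPH1, HSPD1 and HSP90AA1 were also lower than in all 4 control libraries, but these differences passed the test against WT only. HSF1 itself, DNAJB1 and HSPB1 passed it in neither comparison. Of the 10 genes, 9 passed the filter on low values (HSPA1A did not), and 2 were called against GFP (HSPA1B higher, HSPA8 lower), where 20.9% of all 14292 genes tested were called (10.5% higher and 10.4% lower). Against WT, 5 were called (HSPA1B higher, HSPA8, HSPH1, HSPD1 and HSP90AA1 lower), where the share over all genes was 29.9% (14.6% higher and 15.3% lower). HSPA1B and HSPA8 were called in the same direction against both controls, as were 13.7% of all genes (6.88% higher and 6.86% lower). In GFP against WT, 0 of the 9 were called by limma, with unadjusted p under 0.05 for HSPH1, HSPB1 and HSPE1, and 3.67% of all genes were called (1.76% higher and 1.91% lower). Neither edgeR nor DESeq2 called any of the 9 there. Called means a Benjamini-Hochberg adjusted p under 0.05 from limma across all genes, fitted to log2(value + 1), where the value is the deposited normalised read count divided by 23.9. The scale understates changes of low genes. The comparisons with GFP and with WT share the RBMXL3 libraries.

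Both RBMXL3 libraries lay below all 4 controls for HSPA8, HSPH1, HSPD1 and HSP90AA1, a pattern that 23.6% of all tested genes showed, and above all 4 for HSPA1B and HSF1, as 22.5% of genes did. The median log2 change of the 9 genes was -0.25 against GFP and -0.04 against WT, beside 0.0009 and -0.01 over all genes. Without GFP replicate 1 the lone other GFP library is assumed to vary like the other groups, and the calls against GFP became 5: HSF1, HSPA1B, HSPA8, HSPD1 and HSPH1. The share of all genes called rose alongside, to 24.8%. Leaving out GFP replicate 1 or GFP replicate 2 gave 7 of the 9 called against WT each time, where 43.2% and 43.4% of all genes were called. Leaving out WT replicate 1, RBMXL3 replicate 1 or RBMXL3 replicate 2 gave 2, with 10.8%, 11.5% and 10.1% of all genes called.

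**Figure D1:**
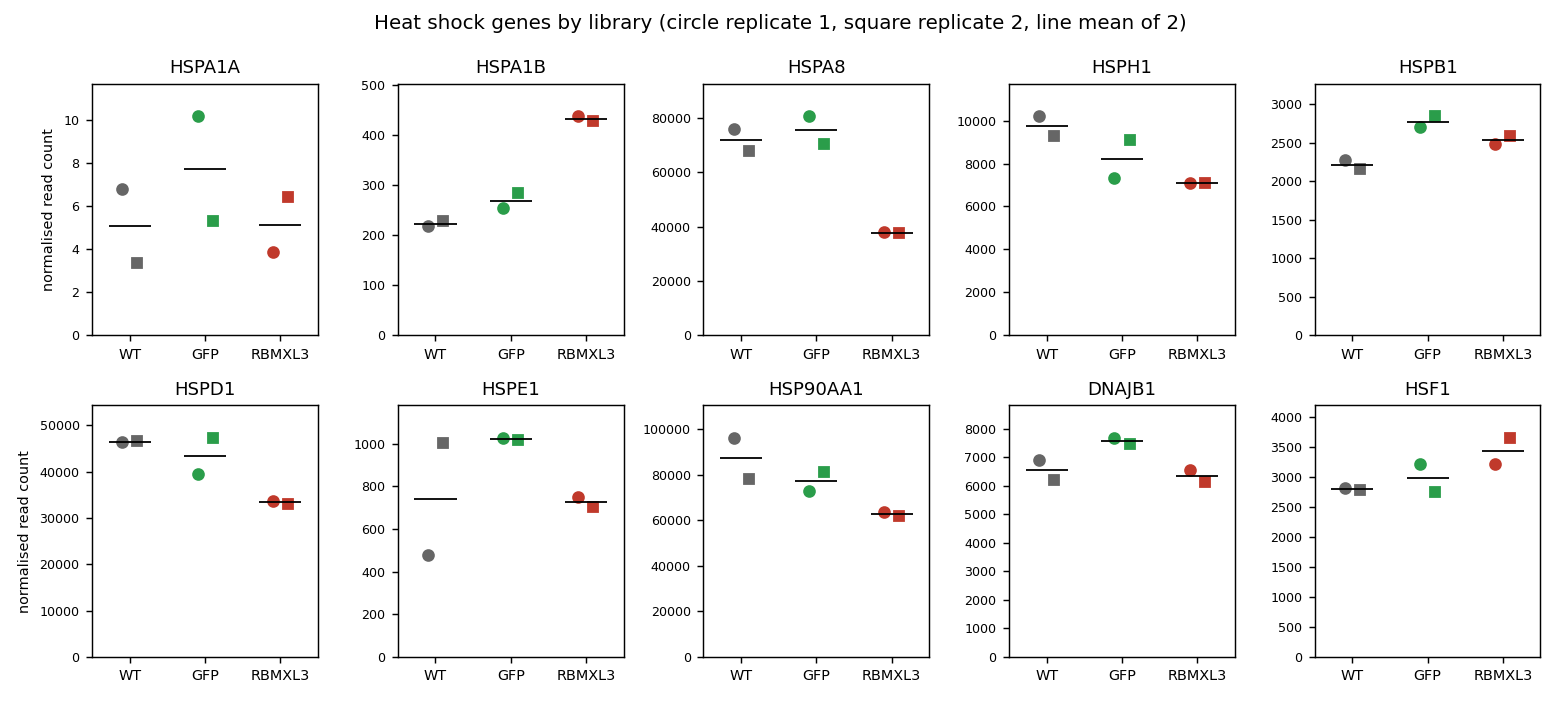
Normalised read count (linear axis from 0) of the 10 heat shock genes in the WT, GFP and RBMXL3 libraries, with circles for replicate 1, squares for replicate 2 and a line at the mean of the 2. HSPA8 lies at 38108 and 37531 in RBMXL3 against 67862 to 80638 in the 4 controls, and HSPA1B at 438 and 429 against 218 to 284.

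The bases around the start of each gene show how far these genes carry the letters that HSF1 is known to bind. The RefSeq promoter table (GRCh38.p14) matched 9 of the 10 genes by symbol, and HSF1 had no entry. Where it lists several starts for a gene, the window nearest the start of that gene's most abundant transcript was used. The 250 bases before the RefSeq start were searched for 2 inverted units (GAANNTTC or TTCNNGAA, each its own reverse complement, so that 1 match serves both strands). They were also searched on both strands for 3 alternating units, which is a match of each kind sharing its middle GAA or TTC. HSPA8, HSPD1 and HSP90AA1 had a run of 3 units, which 0.441% of the 35116 listed windows of that length hold. HSPA8 had 2 such runs, HSPD1 had 2 that overlap, and HSP90AA1 had 1. HSPA1A, HSPA1B, HSPB1 and DNAJB1 had only runs of 2 units, found in 11.6% of all windows. HSPH1 and HSPE1 had neither, which says only that these letters are not in this window. The run of HSPD1 lies upstream of the HSPE1 window, within the span of HSPE1-201. The RefSeq starts are not those of GENCODE 29. Except in HSPH1, where both are the same, the RefSeq start lies 3 to 385 bases downstream of the start of the gene's most abundant transcript. The window therefore lies inside that transcript with all 250 bases for HSPE1, 207 for HSPD1, 199 for HSPA8, 147 for HSP90AA1, 129 for HSPB1, 79 for HSPA1A, 23 for DNAJB1 and 3 for HSPA1B. The runs of 3 units, and the run of 2 that HSPA1A and HSPA1B share, are shown within 30 bases each, 5′ to 3′ on the gene's strand, with the run in capitals.
HSPA8 far run chr11:123062346-123062375 (- strand): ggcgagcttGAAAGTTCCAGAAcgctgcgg
HSPA8 near run chr11:123062171-123062200 (- strand): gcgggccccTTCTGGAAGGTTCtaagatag
HSPD1 chr2:197500061-197500090 (- strand): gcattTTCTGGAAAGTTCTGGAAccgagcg
HSP90AA1 chr14:102087112-102087141 (- strand): ggagggttcTTCCGGAAGGTTCgggaggct
HSPA1A chr6:31815426-31815455 (+ strand): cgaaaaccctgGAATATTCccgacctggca
HSPA1B chr6:31827622-31827651 (+ strand): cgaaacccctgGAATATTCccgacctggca
In HSPA8 the runs of 3 units lie 230 to 218 and 55 to 43 bases before the RefSeq start, and the nearer one is inside HSPA8-224. In HSP90AA1 the run of 3 lies 88 to 76 bases before it, inside HSP90AA1-201, with a further run of 2 closer in, and in HSPD1 the overlapping pair lies 245 to 228 bases before it. HSPA1A and HSPA1B share the run GAATATTC, 106 and 105 bases before their RefSeq starts, and 235 of their 250 bases were identical in a global alignment (14 mismatches, 2 gap positions). The match is a description of letters. All 3 genes with a run of 3 units had lower counts in both RBMXL3 libraries than in any control, as 23.6% of all tested genes did. HSPH1, which had none, did too, and in summed TPM HSP90AA1 overlapped the controls. A link between these letters and the changes was not tested.

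HSPA8 (chromosome 11, 123057489 to 123063230, - strand, GRCh38 as annotated by GENCODE 29, as for all genes here) encodes the constitutive cytosolic HSP70. Its normalised counts were 75852 and 67862 in WT and 80638 and 70350.3 in GFP. In RBMXL3 they were 38108 and 37531. The groups did not overlap, and the highest RBMXL3 value was well under the lowest control. Means were 71857 ± 5650 (SD, n = 2) in WT cells, 75494 ± 7274 in GFP cells and 37820 ± 408 with RBMXL3, a difference of -49.9% from GFP and -47.4% from WT. The log2 change was -0.99 ± 0.13 (SE) against GFP (limma, adjusted p = 0.000625) and -0.92 ± 0.13 against WT (adjusted p = 0.00043). HSPA8 was called lower in all 15 alternative analyses of each comparison, including each of the 6 that leave out 1 library, with adjusted p of at most 0.0378 against GFP and 0.0256 against WT. In GFP against WT its log2 change was 0.07 ± 0.13 (limma, adjusted p = 0.785).

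HSPA1B (chromosome 6, 31827735 to 31830255, + strand), an inducible cytosolic HSP70 gene of a single exon, moved the other way. Its normalised counts were 217.6 and 228.2 in WT cells, 254.1 and 283.9 in GFP cells, and 437.7 and 428.8 with RBMXL3. Both RBMXL3 libraries lay above all controls. The means were 222.9 ± 7.49, 269.0 ± 21.1 and 433.3 ± 6.32 (SD, n = 2), 61.1% above GFP and 94.4% above WT. The log2 change was 0.64 ± 0.12 against GFP (limma, adjusted p = 0.00419) and 0.89 ± 0.12 against WT (adjusted p = 0.000419). Without RBMXL3 replicate 1 the call against GFP was lost (limma, adjusted p = 0.054). The transcript table shows a smaller rise against WT and none beyond that of the median gene against GFP. HSPA1B had 41.3 and 43.1 TPM in WT cells, 54.5 and 48.3 in GFP cells, and 54.5 and 58.0 with RBMXL3. Here RBMXL3 and GFP overlapped, with a log2 change of 0.13 ± 0.10 (limma on summed TPM, adjusted p = 0.445). The change against WT was 0.40 ± 0.10 (adjusted p = 0.0493). The median over all genes on that scale was 0.13 against GFP and 0.03 against WT.

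HSPA1A (chromosome 6, 31815464 to 31817946, + strand), the near-identical neighbour of HSPA1B, had 8 and 4 reads for WT, 11 and 5 in GFP cells, and 3 and 6 with RBMXL3. These counts overlap and are close to the limit of 3 reads, so no difference was detectable at this depth. HSPA1A made up at most 2.24% of the summed TPM of the pair in every library. Of the stretches of 75 bases in the HSPA1A transcript, 71.2% also occur in another gene, and for HSPA1B the share was 73.2%. Both genes are therefore uncertain where reads can be split between copies. HSPA1B had 0.108 to 0.133 times the reads that its TPM and transcript lengths predict in the controls and 0.209 and 0.199 times in RBMXL3, on a scale where the median gene is 1. The rise of HSPA1B thus differs between the tables, and the cause was not tested.

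DNAJB1 (chromosome 19, 14514770 to 14529770, - strand), the J-domain protein that hands clients to HSP70, had normalised counts of 6887 and 6207 in WT cells, 7665 and 7450.2 in GFP cells, and 6564 and 6144 with RBMXL3. RBMXL3 lay below GFP and overlapped WT. The log2 change was -0.25 ± 0.10 against GFP (limma, adjusted p = 0.0898) and -0.04 ± 0.10 against WT (adjusted p = 0.778). In summed TPM the sign was the opposite, with 172 and 159 in WT cells, 172 and 173 in GFP cells and 184 and 179 with RBMXL3. The log2 change there was 0.07 ± 0.09 against GFP (limma, adjusted p = 0.612), below the median of 0.13 over all genes on that scale. Without GFP replicate 2 the counts gave a call, lower against GFP at -0.27 (limma, adjusted p = 0.0375). DNAJB1 shares 211 exonic bases with TECR on the other strand.

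HSPH1 (chromosome 13, 31134974 to 31162388, - strand), the HSP110 that exchanges nucleotide on HSP70, had normalised counts of 10199 and 9276 in WT cells, 7335 and 9084 in GFP cells, and 7076 and 7114 with RBMXL3. The RBMXL3 libraries were below all controls, although GFP replicate 1 came close to them. HSPH1 was at -0.45 ± 0.11 on the log2 scale against WT (limma, adjusted p = 0.011) and -0.20 ± 0.11 against GFP (adjusted p = 0.232). Against WT the call was lost without WT replicate 1 (limma, adjusted p = 0.115), without RBMXL3 replicate 1 (0.096), without RBMXL3 replicate 2 (0.0987), with no filter on low values (0.074) and in summed TPM (0.0568). Without GFP replicate 1, HSPH1 was also called lower against GFP, at -0.36 (limma, adjusted p = 0.0115).

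HSP90AA1 (chromosome 14, 102080738 to 102139699, - strand), the stress-inducible cytosolic HSP90, had normalised counts of 96033 and 78317 in WT cells, 72854 and 81271 in GFP cells, and 63641 and 62064 with RBMXL3. The 2 WT libraries differed by more than GFP and RBMXL3 did on average. HSP90AA1 was at a log2 change of -0.46 ± 0.14 against WT (limma, adjusted p = 0.0274) and -0.29 ± 0.14 against GFP (adjusted p = 0.166). The call against WT was lost without WT replicate 1 (limma, adjusted p = 0.2), RBMXL3 replicate 1 (0.162) or RBMXL3 replicate 2 (0.208). It was also lost with quantile normalisation, at -0.21 (limma, adjusted p = 0.164), with no filter on low values (0.193) and in summed TPM, at -0.23 (0.197). In summed TPM, HSP90AA1 had 1274 and 1289 in GFP and 1259.6 and 1282 in RBMXL3, values that overlap, with 1622 and 1373 in WT. The log2 change in TPM was -0.01 ± 0.11 against GFP (limma, adjusted p = 0.954), and quantile normalisation of the counts turned its sign to 0.05.

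HSPD1 (chromosome 2, 197486581 to 197516737, - strand) encodes the barrel of the mitochondrial chaperonin, and HSPE1 (chromosome 2, 197499994 to 197503457, + strand) its lid. The genes lie head to head and share 281 exonic bases on opposite strands. HSPD1 had normalised counts of 46508 and 46529 in WT cells, 39413 and 47239 in GFP cells, and 33762 and 33074 with RBMXL3. All RBMXL3 values were below all controls. HSPD1 was at a log2 change of -0.48 ± 0.12 against WT (limma, adjusted p = 0.013) and -0.37 ± 0.12 against GFP (adjusted p = 0.0521). The second value sat at the threshold: edgeR (adjusted p = 0.0406), DESeq2 (0.0109), a pseudocount of 0.1 (0.0492), TMM scaling (0.0494) and the stricter filter (0.0474) each called HSPD1 lower against GFP, as did leaving out GFP replicate 1. With no filter it was further from the threshold (limma, adjusted p = 0.223), and quantile normalisation put it at -0.11 (0.463). Against WT those 2 settings lost the call (limma, adjusted p = 0.104 and 0.0635). Without any 1 of the 4 WT and RBMXL3 libraries, the call against WT was lost, with limma adjusted p of 0.0579 to 0.147.

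For HSPE1 the gene table and the transcript table differ. The gene table holds only 0.021 to 0.0535 times the HSPE1 reads that its TPM predicts, and 0.0484% of 10333 genes had a lower ratio. Of its stretches of 75 bases, 43.9% occur in another gene, and 21.7% in HSPD1. Its normalised counts were 477 and 1004 in WT cells, 1026 and 1018 in GFP cells, and 752 and 705 with RBMXL3, so that the low WT replicate 1 made the groups overlap, and neither comparison passed (limma, adjusted p = 0.161 against GFP and 0.849 against WT). This depended on the WT libraries: without WT replicate 2 HSPE1 was called higher against WT at 0.59 (limma, adjusted p = 0.0171), and without WT replicate 1 it was at -0.45 (0.0509). Leaving out WT replicate 1 or WT replicate 2 also made it called lower against GFP (limma, adjusted p = 0.0172 and 0.0187). In summed TPM, HSPE1 had 1558 and 1579 in WT cells, 1502 and 1487 in GFP cells, and 1022 and 1053 with RBMXL3. Both RBMXL3 libraries were well below all controls and replicates were close. The log2 change in TPM was -0.53 ± 0.09 against GFP (limma, adjusted p = 0.0265) and -0.60 ± 0.09 against WT (adjusted p = 0.0131). HSPD1 had 1488 and 1459 TPM in WT cells, 1484 and 1261 in GFP cells, and 1001 and 1024 with RBMXL3, at -0.43 ± 0.11 against GFP (limma, adjusted p = 0.0576) and -0.54 ± 0.11 against WT (adjusted p = 0.0285). The ratio of HSPE1 to HSPD1 in TPM was 1.01 to 1.18 in the controls and 1.02 and 1.03 in RBMXL3.

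HSPB1 (chromosome 7, 76302544 to 76304295, + strand), the small heat shock protein HSP27, had normalised counts of 2278 and 2154 in WT cells, 2705 and 2842 in GFP cells, and 2486 and 2589.9 with RBMXL3. RBMXL3 lay between the controls. HSPB1 was at a log2 change of -0.13 ± 0.09 against GFP (limma, adjusted p = 0.366) and 0.19 ± 0.09 against WT (adjusted p = 0.137). The widest gap was between the controls, at 0.32 ± 0.09 for GFP against WT (limma, adjusted p = 0.0754). Without GFP replicate 1 that gap was called (limma, adjusted p = 0.0269), as it was without GFP replicate 2 (0.0332). HSPB1 was called higher in RBMXL3 than in WT when GFP replicate 1 or GFP replicate 2 was left out (limma, adjusted p = 0.0358 each) and after quantile normalisation (0.0356).

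HSF1 (chromosome 8, 144291591 to 144314722, + strand) had normalised counts of 2822 and 2781 in WT cells, 3214 and 2743 in GFP cells, and 3217 and 3646 with RBMXL3. The lower RBMXL3 library lay only just above the higher GFP library. The log2 change was 0.20 ± 0.11 against GFP (limma, adjusted p = 0.195) and 0.29 ± 0.11 against WT (adjusted p = 0.0592), and neither passed. Without GFP replicate 1, HSF1 was called higher against GFP at 0.32 on the log2 scale (limma, adjusted p = 0.025). Against WT it was called without GFP replicate 1 (limma, adjusted p = 0.00846), without GFP replicate 2 (0.00834) and after quantile normalisation (0.0151). The gene shares 139 exonic bases with DGAT1 on the opposite strand.

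**Figure D2:**
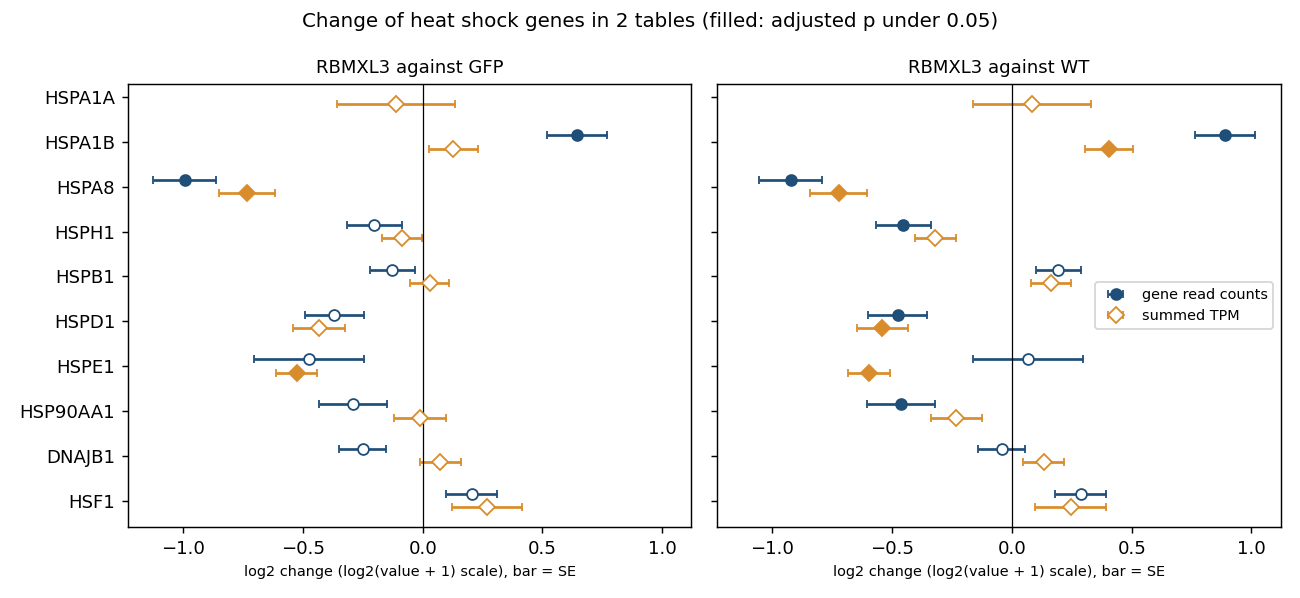
Log2 change of the heat shock genes in RBMXL3 against GFP (left) and against WT (right), with SE bars, from gene read counts (blue circles) and from TPM summed per gene (orange diamonds), filled where the limma adjusted p is under 0.05. HSPA8 is lower in both tables and both comparisons, HSPE1 is lower in TPM, and HSPA1B against GFP is 0.64 in counts and 0.13 in TPM.

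Per length, the summed TPM gives the order of the 10 genes. In WT, HSPA8 was highest at 1843 ± 106 (SD, n = 2), and HSPE1 (1569 ± 14.4), HSP90AA1 (1498 ± 176) and HSPD1 (1473 ± 20.7) followed within the spread of HSP90AA1. HSPB1 (254), HSPH1 (175), DNAJB1 (166), HSF1 (111), HSPA1B (42.2) and HSPA1A (0.716) came after. In GFP, HSPA8 again led at 1863 ± 242. In RBMXL3, HSP90AA1 led at 1271 ± 16.1, ahead of HSPA8 at 1115 ± 28.9. HSPE1 (1037 ± 21.9) and HSPD1 (1013 ± 16.5) overlapped below them, as did HSPH1 (140.0) and HSF1 (132). The 10 genes together made up 0.734% and 0.692% of all TPM in WT cells, 0.707% and 0.648% in GFP cells, and 0.516% and 0.531% with RBMXL3. In bulk RNA, fewer cells with a transcript and less of it per cell cannot be told apart.

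Summed TPM was also tested over all genes. There, 2 of the 10 genes were called against GFP (HSPA8 and HSPE1, lower), where 6.93% of 14262 genes were called (5.46% higher and 1.47% lower). Against WT, 4 were called (HSPA1B higher, HSPA8, HSPD1 and HSPE1 lower), where the share was 11.5% (6.97% higher and 4.52% lower). This scale shifted the median of all genes to 0.13 against GFP, and 78.8% of its calls against GFP were higher, against 50.3% in the gene counts. Against WT the shares were 60.7% and 48.8%.

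Single transcripts show where the falls of HSPA8 and HSPD1 in TPM lie. Across 44693 transcripts, 1.25% were called against GFP (0.562% higher and 0.685% lower) and 1.53% against WT (0.613% higher and 0.92% lower) by limma on log2(TPM + 1). Of 44 transcripts of the heat shock genes, the same 3 were called in each comparison, all lower in RBMXL3: HSPA8-222, HSPD1-213 and HSPE1-201. HSPA8-222 had 403 and 253 TPM in WT and 452 and 462 in GFP, and was listed at 0 in both RBMXL3 libraries (limma, adjusted p = 0.00303 against GFP and 0.00409 against WT). HSPD1-213 had 326 and 228 TPM in WT and 421 and 113 in GFP, and was also listed at 0 in both (adjusted p = 0.0188 and 0.0175). These 2 transcripts carried 14.3% to 27.3% of HSPA8 and 8.97% to 28.4% of HSPD1 in the controls. A TPM of 0 from an estimate that shares reads among overlapping models need not mean that the RNA is missing, and no fold is given.

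This pattern was rare, and it was looked for after its values were seen. Of 251955 transcripts, 2254 had at least 50 TPM in all 4 controls, and 8 of these were listed at 0 in both RBMXL3 libraries. The 8 held HSPA8-222 and HSPD1-213. The other named ones were RAC1-204, PABPC1-215, LDHB-202 and KRT8-211. The same search for transcripts at 0 in both GFP libraries, or in both WT libraries, and at 50 TPM or more in the other 4 found 0 transcripts each.

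HSPA8-222 is a coding model that starts inside the gene. Its first 118 bases (chromosome 11, 123060269 to 123060386) lie outside the exons of the full-length HSPA8-224, and 1766 of its 1884 bases are shared with it. Those 118 bases are annotated as 5′ UTR. HSPA8-224 itself had 1495 and 1487 TPM in WT cells, 1392 and 1210.4 in GFP cells, and 1082 and 1113 with RBMXL3. These values were lower in RBMXL3 than in all controls, but the log2 change of -0.24 ± 0.09 against GFP (limma, adjusted p = 0.248) and of -0.44 ± 0.09 against WT (adjusted p = 0.0997) did not pass.

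HSPD1-213 is a non-coding model of the retained-intron class, with 526 of its 648 bases shared with the full-length HSPD1-202. Its first 115 bases, which lie in an intron of HSPD1-202, are shown in lower case because they are what sets it apart, followed in capitals by the first 20 bases of the next exon, in the sequence of the GENCODE 29 transcript (GRCh38).
HSPD1-213 chr2:197497373-197497507 (- strand): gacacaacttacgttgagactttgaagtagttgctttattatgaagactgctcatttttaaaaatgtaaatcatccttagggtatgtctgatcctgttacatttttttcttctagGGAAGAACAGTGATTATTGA
The lower-case run ends in ag, the letters at the end of nearly all human introns. HSPD1-202 had 1126 and 1191 TPM in WT cells, 924 and 1105 in GFP cells, and 980.2 and 1007 with RBMXL3. Its RBMXL3 values fell within the GFP range, with a log2 change of -0.02 ± 0.11 (limma, adjusted p = 0.926) against GFP and -0.22 ± 0.11 (adjusted p = 0.354) against WT. HSPE1-201, the main HSPE1 transcript, had 1369 and 1420.0 TPM in WT cells, 1335 and 1325 in GFP cells, and 903 and 919.9 with RBMXL3 (log2 change -0.54 ± 0.06, adjusted p = 0.0414 against GFP, and -0.61 ± 0.06, adjusted p = 0.0293 against WT, limma). Leaving out either RBMXL3 library lost all 3 transcript calls in both comparisons, with limma adjusted p of 0.0939 to 0.337. Leaving out either WT library lost those of HSPD1-213 and HSPE1-201 in both comparisons, and leaving out either GFP library lost that of HSPE1-201 against GFP. With no filter on low values HSPE1-201 was not called in either comparison (limma, adjusted p = 0.0959 and 0.069). With the replicate number as a block, HSPE1-201 was called in neither (limma, adjusted p = 0.138 and 0.112) and HSPD1-213 was not called against GFP (0.0513).

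**Figure D3:**
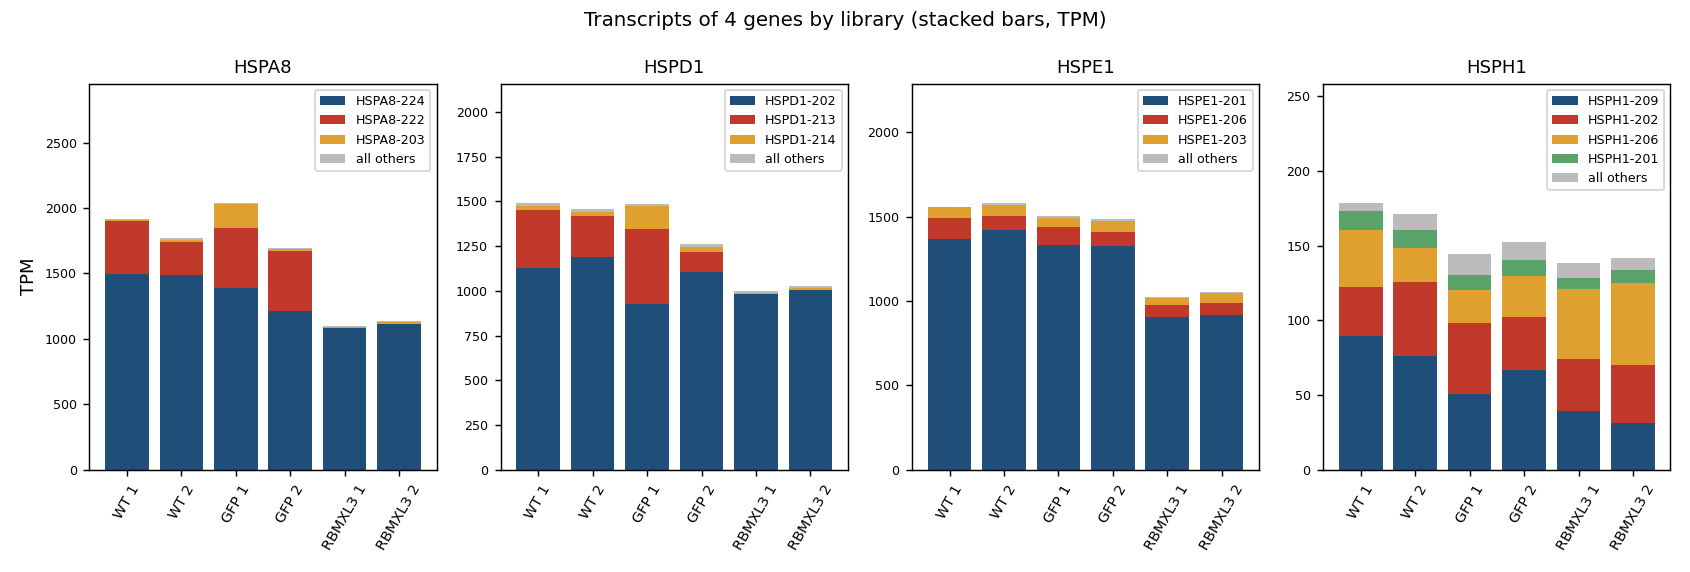
TPM of the named transcripts of HSPA8, HSPD1, HSPE1 and HSPH1 in each of the 6 libraries, as stacked bars from 0, with all other transcripts of the gene in grey. HSPA8-222 and HSPD1-213, in red, are listed at 0 and do not show in the RBMXL3 bars, HSPE1-201 drops from 1325 or more to 903 and 919.9, and HSPH1-206 makes up more of the bar in RBMXL3.

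HSPH1 kept its summed TPM near that of GFP (145 and 153 in GFP, 138 and 142 in RBMXL3) while its mix of transcripts differed. HSPH1-209 made up 50.05% and 44.6% of the gene in WT cells, 35.0% and 43.8% in GFP cells, and 28.4% and 22.3% with RBMXL3. HSPH1-206, a model annotated for nonsense-mediated decay, made up 21.5% and 13.4% in WT cells, 15.3% and 18.1% in GFP cells, and 33.6% and 38.6% with RBMXL3. Both shares lay outside the control range in RBMXL3. They are parts of 1 total, and how often transcript shares separate like this over all genes was not counted. The TPM tests of the transcripts themselves did not pass: HSPH1-209 was at -0.71 ± 0.19 against GFP (limma, adjusted p = 0.16) and -1.21 ± 0.19 against WT (adjusted p = 0.0637), and HSPH1-206 at 1.00 ± 0.27 (adjusted p = 0.163) and 0.75 ± 0.27 (adjusted p = 0.249).

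HSPH1 is known for 2 protein forms that differ by an alternative exon. The annotation holds 1 internal exon of 132 bases (chromosome 13, 31143792 to 31143923) that HSPH1-209 includes and HSPH1-202 skips. The junctions that tell the forms apart are shown with 15 bases on each side, in lower case before and in capitals after the junction.
HSPH1 skipping the exon chr13:31141245-31145577 (- strand): aacccagacactgatGCAAATGAAAAAAAA
HSPH1 into the exon chr13:31143909-31145577 (- strand): aacccagacactgatAAAAATGTCCAGCAA
HSPH1 out of the exon chr13:31141245-31143806 (- strand): ccagatgctgacaaaGCAAATGAAAAAAAA
Transcripts with the exon carried 80.9% and 69.6% of the TPM of both kinds in WT cells, 64.0% and 75.2% in GFP cells, and 72.7% and 71.2% with RBMXL3. The RBMXL3 values fell inside the range of the controls. The 5 transcripts with the exon include HSPH1-206, the model annotated for nonsense-mediated decay. It had 46.6 and 54.7 of their 93.7 and 95.7 TPM in RBMXL3. In the controls it had 22.1 to 38.4 of their 84.0 to 140.5 TPM. The share without HSPH1-206 was not worked out, so these values do not give the mix of the 2 protein forms. HSPH1-202, which skips it, had 33.2 to 49.1 TPM in the controls and 35.2 and 38.6 in RBMXL3. Reads on the junctions themselves were not analysed here.

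The other genes were carried mostly by 1 transcript. HSP90AA1-201 made up 97.98% to 98.99% of HSP90AA1, HSPB1-201 made up 97.4% to 99.1% of HSPB1, and DNAJB1-201 made up 95.3% to 98.4% of DNAJB1. HSF1-204 made up 59.5% to 71.5% of HSF1 in the controls and 73.6% and 73.2% in RBMXL3. HSF1-204 had 77.2 and 78.3 TPM in WT cells, 74.9 and 66.1 in GFP cells, and 90.8 and 104 with RBMXL3. The 2 RBMXL3 libraries were above all controls, and the change of 0.46 ± 0.11 against GFP did not pass (limma, adjusted p = 0.138), nor did 0.32 ± 0.11 against WT (adjusted p = 0.236). Some transcripts were high in GFP replicate 1 alone: HSPA8-203 had 183.5 TPM there and at most 17.0 elsewhere, HSPD1-214 had 129 against at most 26.0, and HSF1-212 had 14.5 against 0.

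The rest of the chaperone system was read from lists of 112 further genes, of which 96 were tested. Against GFP, 5 were called higher and 16 lower, or 21.9% of those tested, close to the 20.9% of all genes (10.5% higher and 10.4% lower). Against WT, 8 were higher and 20 lower, or 29.2%, beside 29.9% of all genes (14.6% higher and 15.3% lower). The lean to lower calls was not seen in summed TPM, with 4 higher and 1 lower against GFP and 5 higher and 4 lower against WT. The median log2 change of the 96 genes was -0.12 against GFP and -0.11 against WT. The genes named below as called in both comparisons gave 32 calls, of which 24 were lost without RBMXL3 replicate 1, 28 without RBMXL3 replicate 2, 12 without WT replicate 1 and 18 with no filter on low values. In summed TPM, 22 of the 32 were lost and a further 2 turned sign.

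The subunits of TRiC, the cytosolic chaperonin that folds actin and tubulin, were lower together. Of the 8 tested, 6 were called lower and 0 higher in each comparison, 5 of them in both, where the shares of all genes called lower were 10.4% against GFP, 15.3% against WT and 6.86% against both. Their median log2 change was -0.41 against GFP and -0.47 against WT. The list was chosen with earlier results of these data known, so these counts are a description only. CCT8 had normalised counts of 19832 and 19802 in WT cells, 18555 and 21787 in GFP cells, and 13669 and 13042 with RBMXL3, and its log2 change was -0.59 ± 0.11 against GFP (limma, adjusted p = 0.00357) and -0.57 ± 0.11 against WT (adjusted p = 0.00274). CCT7 was at -0.68 ± 0.10 and -0.47 ± 0.10, CCT5 at -0.55 ± 0.11 and -0.47 ± 0.11, and CCT2 at -0.43 ± 0.10 and -0.45 ± 0.10. In each of these 4 genes both RBMXL3 libraries were below all 4 controls, as in 23.6% of all tested genes. The 4 were named because they were called lower against both controls, so this adds no support. The TRiC calls depended on the library: without RBMXL3 replicate 2, 1 of 8 was called against GFP and 0 against WT, without RBMXL3 replicate 1 the counts were 2 and 1, and without WT replicate 1, 1 was called against WT. With no filter on low values, 1 was called against GFP and 3 against WT, and quantile normalisation called 3 against GFP and 6 against WT. In summed TPM, limma called 0 of the 8, with an unadjusted p under 0.05 for 3 against GFP and 5 against WT, and CCT8 was at -0.26 and -0.30. The edgeR and DESeq2 fits of the counts called 6 or 7 of them.

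Among the other 11 tested genes of the HSP70 and HSP110 family, 2 rose against both controls and 2 fell, where 6.88% and 6.86% of all genes did. HSPA13, an HSP70 of the secretory pathway, rose by 0.48 ± 0.10 against GFP (limma, adjusted p = 0.00724) and by 0.48 ± 0.10 against WT (adjusted p = 0.00473), and HSPA12B rose by 0.53 ± 0.13 and 0.67 ± 0.13. HSPA4, a further HSP110, was at -0.45 ± 0.10 and -0.43 ± 0.10, and HSPA14 at -0.45 ± 0.13 and -0.53 ± 0.13, both called lower in both. The rise of HSPA13 shrank to 0.10 and 0.09 in summed TPM. Of the 3 other HSP90 genes, limma called 0, with an unadjusted p under 0.05 for 2 against GFP and 1 against WT, while edgeR and DESeq2 each called 1 in each comparison. The nearest to a call was HSP90AB1, the constitutive HSP90, at -0.37 (limma, adjusted p = 0.0574) and -0.33 (0.0646), named here after its values were seen.

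Of 37 tested J-domain genes, 1 was called higher and 4 lower against GFP, and 3 higher and 7 lower against WT. These are 13.5% and 27.0% of the genes, under the 20.9% and 29.9% of all genes. DNAJA1, a J-domain partner of HSPA8, fell from 15497 and 13688 in WT cells and 13677 and 14693 in GFP cells to 10498 and 10268 with RBMXL3 (log2 change -0.45 ± 0.11, adjusted p = 0.0114 against GFP, and -0.49 ± 0.11, adjusted p = 0.00483 against WT, limma). Both calls of DNAJA1 were lost without RBMXL3 replicate 1 (limma, adjusted p = 0.117 and 0.0623) or RBMXL3 replicate 2 (0.16 and 0.0865). DNAJC8 and DNAJC21 were the others called lower in both, but with a replicate block neither was called against GFP (limma, adjusted p = 0.0545 and 0.0638) and DNAJC21 was not called against WT (0.0767). DNAJB14 was the 1 called higher in both, at 0.67 ± 0.12 and 0.53 ± 0.12, but was at -0.14 and -0.15 in summed TPM.

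Of 14 tested co-chaperones of HSP90 and HSP70, 2 were called lower against GFP and 3 against WT, and 0 higher. The shares of 14.3% and 21.4% lie under the 20.9% and 29.9% of all genes, with 10.4% and 15.3% of all genes called lower. AHSA1, the activator of the HSP90 ATPase, was at -0.54 ± 0.11 against GFP (limma, adjusted p = 0.0068) and -0.47 ± 0.11 against WT (adjusted p = 0.00898). In summed TPM, AHSA1 was at -0.22 (limma, adjusted p = 0.456) and -0.37 (0.204), and neither passed. FKBP4, an HSP90-binding prolyl isomerase, was at -0.40 ± 0.11 and -0.31 ± 0.11, and shrank to -0.05 and -0.11 in summed TPM. With a replicate block FKBP4 was not called against WT (limma, adjusted p = 0.0797). Of 9 nucleotide exchange factors, 1 was called higher against GFP and 1 lower against WT. These are 11.1% each, under the 20.9% and 29.9% of all genes. Of 4 tested heat shock factors and their regulators, 0 were called in either comparison by limma, edgeR or DESeq2, with an unadjusted p under 0.05 for 1 gene in each. Of 2 tested small heat shock proteins, 0 were called against GFP and 1 was called higher against WT, where 14.6% of all genes were. In GFP against WT, 1 of the 2 was called higher too, as were 1.76% of all genes.

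Other known HSF1 targets did not move one way. Of 18 tested, 1 was called higher and 5 lower against GFP, and 2 higher and 5 lower against WT. That is 33.3% and 38.9% of them, beside 20.9% and 29.9% of all genes. This list shares genes with the lists above, AHSA1, FKBP4 and DNAJA1 among them. ZFAND2A, an arsenite- and heat-inducible gene, had normalised counts of 749 and 781 in WT cells, 757 and 820.0 in GFP cells, and 568 and 519.7 with RBMXL3, at -0.52 ± 0.11 against GFP (limma, adjusted p = 0.00671) and -0.48 ± 0.11 against WT (adjusted p = 0.00691). IER5, whose product is known to act on HSF1, went up from 1162 and 1191 in WT cells and 1161 and 1473 in GFP cells to 1799.9 and 1781 with RBMXL3, at 0.45 ± 0.12 (limma, adjusted p = 0.018) and 0.60 ± 0.12 (adjusted p = 0.00273).

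**Figure D4:**
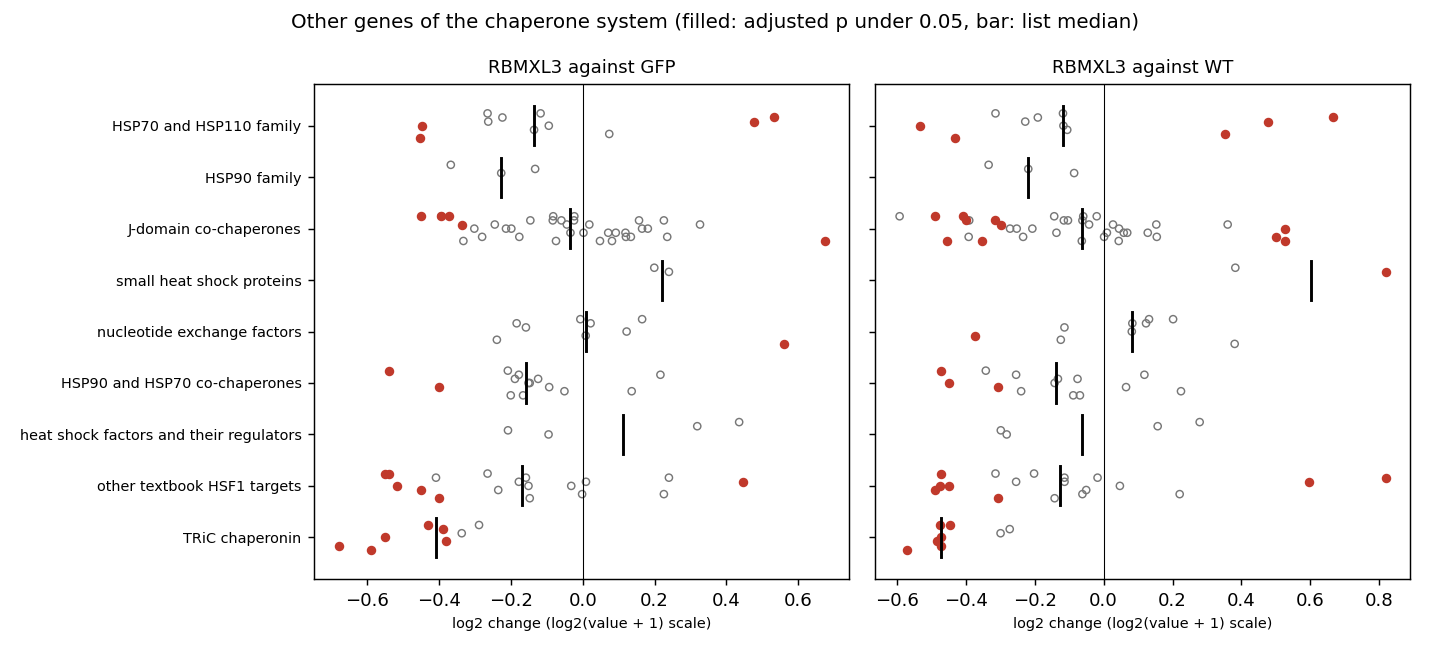
Log2 change of each tested gene of the chaperone lists in RBMXL3 against GFP (left) and against WT (right), filled where the limma adjusted p is under 0.05, with a bar at the list's median. Of the 8 TRiC subunits all lie below 0 and 6 are filled on each side, while the 37 J-domain genes spread on both sides of 0.

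Over the 6 libraries, the genes whose log2 values followed DNAJB1 most closely, among 10744 genes, were PRSS23 (Pearson r = 0.993), PRPSAP1 (0.980), TBC1D22A (0.979), WBP1L (0.974) and ZC3HC1 (0.972). For HSF1 they were ADARB1 (0.997), SCML1 (0.995), PPP2R5B (0.993), PPP1R13L (0.991) and DUS1L (0.988). These points share libraries and their depth, and with 6 of them and so many genes searched the values are given as a description only.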

How the data were processed

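Polyadenylated RNA of 6 libraries was used, 2 per group, grouped by their titles. The submitters' processing notes name Trim Galore 0.6.10, STAR 2.7.11a, DESeq2, Salmon 1.10.2 and the builds GRCh38 and hg38. The read counter, annotation and strand setting are not given in the sources used here, so reads from genes that overlap on opposite strands may not be told apart. The deposited gene table holds a normalised signal in which every column is read counts divided by 1 factor: 100% of 145320 nonzero values were whole multiples of 1 read (tolerance 1e-06 reads). It is called a normalised read count here. The deposited transcript table holds TPM for 251955 transcripts, of which 80.0% were matched to GENCODE 29 (GRCh38), whose coordinates are printed. TPM keeps no depth.

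Gene values were divided by 23.9, 1 factor for all libraries that puts them on the scale of CPM. The 14292 genes that reached 1 on that scale in 2 or more libraries were tested with limma 3.58.1 (R 4.3.3) on log2(value + 1), in 1 two-sided fit of all libraries with an intensity trend and Benjamini-Hochberg adjustment over all genes. Transcripts were filtered and tested likewise on log2(TPM + 1). As alternatives on the recovered reads, edgeR 4.0.16 called 1425 genes higher and 1423 lower against GFP and 2098 and 2059 against WT, and DESeq2 1.42.0 called 1191 and 1314, and 1699 and 1927. Other alternatives were the pseudocount, the filter, quantile and TMM normalisation, summed TPM, each library left out and a replicate block. The scripts were tested on simulated data. Limits set by a count of 0 (3 reads) cover counting error only.

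The members and gene lists were chosen with earlier results of these data known. Named are all 10 genes, their transcripts with a mean of at least 5 TPM (at most 4 per gene), up to 4 genes per list called alike against both controls (ranked by the smaller of the 2 changes), and the 5 genes most like DNAJB1 and HSF1. HSPB11 was not found under that symbol.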

Additional observations from a re-analysis of the deposited data

How the results depend on the processing

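The falls of HSPA8 in both comparisons and the rise of HSPA1B against WT were called in all 15 alternatives. With no filter on low values, 950 genes were called against GFP, 2327 against WT, 673 against both and 0 in GFP against WT, 2 of the heat shock genes were called against WT, and 163 and 183 transcripts were called against GFP and WT. Summed TPM called 988 genes against GFP, 1638 against WT, 655 against both and 0 in GFP against WT, where quantile normalisation called 327. Leaving out each library in turn gave 679 to 4304 genes against GFP, 1428 to 6155 against WT, 445 to 2710 against both and 0 to 2770 in GFP against WT. It gave 1 to 5 heat shock genes against GFP, 2 to 7 against WT, 1 to 5 against both and 0 to 2 in GFP against WT, and 0 to 660 and 1 to 827 transcripts against GFP and WT. The lone library left in a group is then assumed to vary like the other groups.

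Some log2 changes turned sign. Summed TPM put HSPB1 at 0.0295 and DNAJB1 at 0.0735 against GFP, both below the median of 0.1257 over all genes there. It put DNAJB1 at 0.13 and HSPE1 at -0.60 against WT, and DNAJB14 at -0.14 and -0.15 against GFP and WT. In GFP against WT it put HSPE1 at -0.07 and HSF1 at -0.0235. Quantile normalisation put HSP90AA1 at 0.0464 against GFP, DNAJB1 at 0.0532 against WT and HSPA8 at -0.0153 in GFP against WT. HSPE1 against WT was at -0.0161 by edgeR and -0.024 by DESeq2. With 1 library left out, changes in GFP against WT ran from -0.0283 to 0.17 for HSPA8, -0.24 to 0.0222 for HSPD1 and -0.0302 to 0.20 for HSF1. Against WT they ran from -0.45 to 0.59 for HSPE1, -0.12 to 0.0328 for DNAJB1, -0.78 to 0.0165 for HSPA8-203, -0.40 to 0.15 for HSPH1-202, -0.61 to 0.56 for HSP90AA1-204 and -0.21 to 0.0722 for HSF1-201. Against GFP they ran from -0.35 to 0.0573 for HSPH1-202, -0.15 to 0.10 for HSPD1-202, -0.17 to 0.0865 for HSP90AA1-204, -0.25 to 0.0173 for HSF1-208 and -0.23 to 0.0542 for HSF1-201. The cause of these turns of sign was not tested.

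The replicate numbers did not pair the libraries: deviations of same-numbered libraries correlated at -0.156 (WT and GFP), 0.034 (WT and RBMXL3) and -0.094 (GFP and RBMXL3). With a replicate block, 191 genes were called in GFP against WT, 69 transcripts against GFP and 69 against WT, and the heat shock genes called numbered 2 against GFP and 5 against WT. Of the 32 calls of named list genes, 4 were lost, as were the transcript calls of HSPD1-213 against GFP and HSPE1-201 in both comparisons.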
